A study of Mus musculus with 5 samples.

Results

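Lineage transcription factors are the DNA-binding proteins that set and keep the identity of embryonic cell types, and most of their genes are silent or nearly so in pluripotent cells. The genes described here belong to 8 such families. They are forkhead (Fox), Sry-related HMG box (Sox), T-box (Tbx), NK homeobox (Nkx), paired box (Pax), LIM homeobox (Lhx), POU homeobox (Pou) and GATA zinc-finger (Gata) factors. Members were taken by symbol, under a rule written with earlier results of these data known. The symbol pattern matched 90 gene names, and the 8 names Foxj2, Foxq1, Sox7, Tbx6, Nkx1-2, Gata2, Gata4 and Gata6 were left out of the selection by name. That left 82 members of the 24538 genes in the table, 10855 of which carried a symbol. They comprise 26 Fox, 11 Nkx, 10 Sox, 10 Tbx, 8 Pou, 7 Lhx, 7 Pax and 3 Gata names. The names Foxl2os and Nkx2-2os are antisense RNA genes that begin like a family name, and neither could be told apart from its partner without a stated strand.

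The series measured polyadenylated RNA of murine embryonic stem cells, which are cultured pluripotent cells derived from the early embryo. The deleted group held 2 libraries from cells without the −45 super-enhancer, a dense cluster of enhancers near the pluripotency gene Nanog. The wildtype group held 3 libraries of cells labelled wildtype. The design text states 3 replicates per condition, but 2 deleted libraries were analysed here. All cultures were set up in 6-well plates and received either ethanol as vehicle or 4-hydroxytamoxifen for 6 days, and the labels do not tie a treatment to a library. If treatment differed between the groups, it cannot be told apart from the deletion here. Whether the libraries came from separate cultures or clones is not stated, so p-values reflect only how far these libraries vary, possibly for technical reasons. The title frames the work as a study of how super-enhancers control Nanog. The comparison here asks which lineage factor genes differed between the deleted and the wildtype libraries.

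Bin counts totalled 93574609 and 99134363 in deleted 1 and 2, and 125184361, 114838600 and 213042746 in wildtype 1, 2 and 3. In exon-bin counting of the DEXSeq kind, a read that touches several bins is counted in each, so counts are not independent molecules. One count was worth 0.00463 to 0.0107 CPM (a gene's count relative to the TMM-scaled total of its library), and 3 counts were worth 0.0139 to 0.0321 CPM. These cover counting error only. The median absolute log2 difference per tested gene was 0.0949 between the deleted libraries and 0.0787 between wildtype 1 and 2. Wildtype 3 stood apart from wildtype 1 and 2, at 0.149 and 0.153. Distances between a deleted and a wildtype library ran over 0.270 to 0.317. None of 10 pluripotent stem cell markers, such as Pou5f1 and Sox2, had a row under its symbol, so the labelled cell type and the targeted gene were not checked here. Another 13683 genes stand under IDs that the table does not pair with symbols, so the 82 members are the family genes that carried a symbol, not the whole families.

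These families differ in how they bind DNA. Forkhead factors use a winged helix, and the Foxa proteins among them can open closed chromatin in the endoderm. Sox factors bend DNA with an HMG box, T-box factors act in mesoderm, heart and limb, GATA factors in blood, heart and endoderm, and the Nkx, Lhx and Pou families, which share the homeodomain, in organ and neuron identity.

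Promoters are shown for 3 members. Foxa3 and Foxi3 had the calls that held under every alternative analysis, and Sox5 had the largest fold change of the members that were higher. The windows run from 250 bases before to 50 bases after the gene start in RefSeq (GRCm38.p6), each read 5′ to 3′ on the strand of the gene. Capitals mark a match to one of 9 short motifs. Foxa3 lies at chr7:19023490-19023789 on the minus strand, Foxi3 at chr6:70956356-70956655 on the plus strand and Sox5 at chr6:143947057-143947356 on the minus strand.
Foxa3: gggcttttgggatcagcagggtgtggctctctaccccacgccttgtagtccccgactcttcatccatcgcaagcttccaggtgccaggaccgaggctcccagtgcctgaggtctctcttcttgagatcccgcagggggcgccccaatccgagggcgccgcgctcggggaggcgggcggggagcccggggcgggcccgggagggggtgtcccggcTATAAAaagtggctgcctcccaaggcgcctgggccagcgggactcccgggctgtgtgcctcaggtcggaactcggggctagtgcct
Foxi3: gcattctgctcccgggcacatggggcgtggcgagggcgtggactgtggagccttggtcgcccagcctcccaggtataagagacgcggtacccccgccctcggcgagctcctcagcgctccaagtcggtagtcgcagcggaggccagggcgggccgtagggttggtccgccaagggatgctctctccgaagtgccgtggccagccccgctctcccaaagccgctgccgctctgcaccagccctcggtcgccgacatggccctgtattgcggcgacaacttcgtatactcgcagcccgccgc
Sox5: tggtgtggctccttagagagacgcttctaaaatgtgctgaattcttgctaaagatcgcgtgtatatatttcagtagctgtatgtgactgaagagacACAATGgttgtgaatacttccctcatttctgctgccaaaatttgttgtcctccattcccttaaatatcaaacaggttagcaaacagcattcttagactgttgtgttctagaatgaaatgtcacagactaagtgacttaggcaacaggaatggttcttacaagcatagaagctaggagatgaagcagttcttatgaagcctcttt
The motifs were TGTTTAC for forkhead factors, ACAATG and ACAAAG for Sox factors, GGTGTGA for T-box, TNAAGTG for Nkx, TAATTA for homeodomains, ATGCAAAT for POU factors, AGATAA for GATA factors and the TATA box TATAAA. Each was searched on both strands, and no motif contains another. The Foxa3 window held the TATA box, whose first base lies 36 bases before the gene start, and 14.2% of all 27025 promoter windows held one. The Sox5 window held ACAATG, which 12.8% of all windows did. No listed motif was in the Foxi3 window, nor in those of Foxr2 and Pou2f2. Base composition differed between these windows. Foxa3 and Foxi3 had 69.0% G and C with 22 and 31 CpG dinucleotides, while Sox5 had 39.7% with 3. RefSeq windows were matched for 59 of the 82 members. Their median was 62.0% G and C with 17 CpG, against 52.7% and 7 over all promoters, and 62.7% of them had a CpG content of at least 0.6 of that expected from base composition, against 36.5% of all promoters. This composition is a description of the selected families and was not tested. Sox18 had no entry.

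The members were scarce in every library, but so were genes under symbols in general. Rows under symbols held 0.328% to 0.375% of the bin counts per library. The median log2 CPM was −2.23 over tested members, −1.12 over tested symbols and 3.46 over all tested genes. Low levels were therefore not particular to these families, though tested members stood below tested symbols in general. The members' summed level was 16.9 and 17.3 CPM in deleted 1 and 2, and 16.3, 17.3 and 17.8 CPM in wildtype 1, 2 and 3, so the groups overlapped. With the 8 left-out names added, the sum was 22.3 and 23.0 CPM in deleted against 24.7, 26.6 and 26.9 CPM in wildtype libraries, below wildtype without overlap. At most 1 CPM was reached in every library by 77 of the 82. The highest value of any member was 3.47 CPM, for Foxr2 in wildtype 2. Over the members of each family, the Sox sum was 4.07 and 4.00 CPM in deleted libraries against 3.01, 3.05 and 3.20 CPM in wildtype libraries, and the Gata sum was 1.47 and 1.13 CPM in deleted libraries against 0.973, 1.02 and 1.03 CPM in wildtype libraries. Both were above wildtype without overlap, but neither held over the whole symbol pattern. With Sox7 added, the Sox sum was 5.20 and 5.38 CPM in deleted against 4.99, 5.62 and 5.60 CPM in wildtype libraries, and the groups overlapped. With Gata2, Gata4 and Gata6 added, the Gata sum was 3.72 and 3.38 CPM in deleted against 4.08, 4.29 and 4.06 CPM in wildtype libraries, which is below wildtype. The Fox sum was 5.07 and 4.97 CPM in deleted libraries against 5.62, 6.20 and 5.79 CPM in wildtype libraries. Foxr2 alone gave 2.48 and 2.16 CPM of it in deleted and 3.19, 3.47 and 2.83 CPM in wildtype libraries. The median log2 fold change was 0.26 over the 9 tested Fox members and −0.24 over 11 tested genes with the left-out names, so the sum does not describe the family. The Nkx sum was 1.37 and 1.86 CPM in deleted libraries against 2.11, 1.96 and 2.19 CPM in wildtype libraries. The Pax sum was 0.300 and 0.222 CPM in deleted libraries against 0.402, 0.350 and 0.315 CPM in wildtype libraries. These 3 family sums were below wildtype without overlap, also with the left-out Fox and Nkx names added. Sums of the Lhx, Pou and Tbx families overlapped. The sums were not tested. In bulk RNA, fewer cells of a type and less RNA per cell cannot be told apart.

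Enough counts for a test were present in 36 members, and 46 had too few, namely 17 Fox, 7 Nkx, 5 Tbx, 5 Pax, 4 Pou, 4 Lhx, 3 Sox and 1 Gata names. The test needed about 0.0871 CPM, the equivalent of 10 counts in a library of median size, in at least 2 libraries. Tested members held 48 to 1851 counts over the 5 libraries. Both groups met this filter for 28 of the 36, the deleted libraries alone for 3 (Sox5 and Foxe1 among them) and the wildtype libraries alone for 5 (Lhx3, Pax1, Pax2, Tbx15 and Foxa2). A gene that entered through 1 group was selected partly by its difference.

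**Figure D1:**
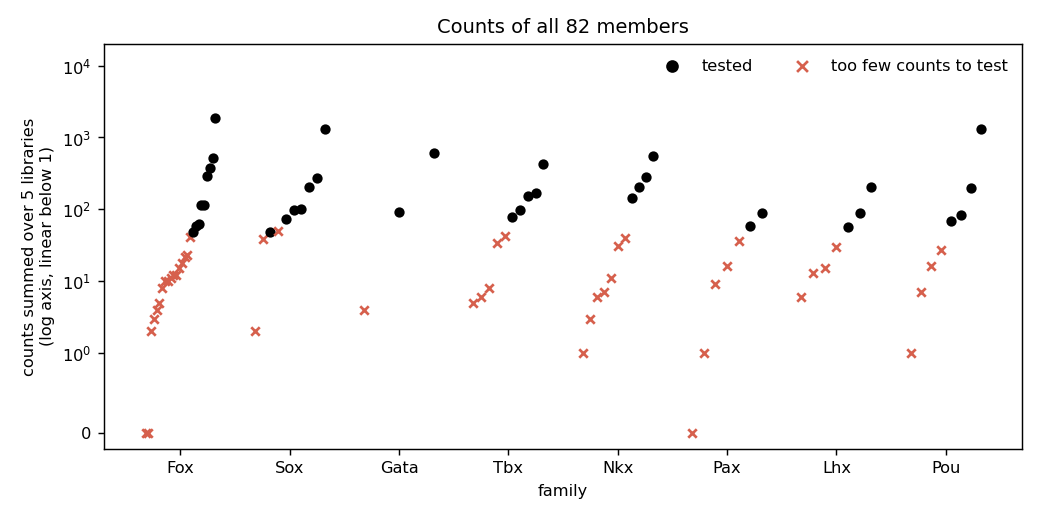
Counts of each of the 82 members summed over the 5 libraries (vertical axis, log scale, linear below 1) by family. Circles are the 36 tested members, crosses the 46 with too few counts, and the 3 crosses at 0 are Foxb2, Foxi1 and Pax4.

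Among the 46 untested members, 3 had no count in any library, which allows a level of up to 0.0139 to 0.0321 CPM, depending on the library, and 21 had at most 3 counts in every library. The untested members with the most counts were Sox10, a neural crest factor gene, Tbx18, Foxc2, Nkx2-3 and Sox9, a factor of cartilage and testis. Sox10 had 6 and 8 counts in the deleted and 11, 9 and 16 in the wildtype libraries. Tbx18 had 7 and 4 counts in the deleted and 8, 8 and 15 in the wildtype libraries. Depth differs between libraries, so raw counts are not compared directly. Foxc2 had 11 and 8 counts in the deleted and 6, 6 and 10 in the wildtype libraries. Nkx2-3 had 7 and 15 counts in the deleted and 6, 5 and 7 in the wildtype libraries. Sox9 had 2 and 0 counts in the deleted and 6, 5 and 26 in the wildtype libraries, most of them in wildtype 3. Pou1f1, Pax5 and Nkx2-6 had 1 count each in the whole series. None of these met the filter for a test.

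Of the 36 tested members, 3 were higher, 4 were lower and 29 did not pass at a Benjamini-Hochberg adjusted p under 0.05 in edgeR's quasi-likelihood test over all 16259 tested genes. Foxa3, Sox18 and Sox5 were higher in the deleted cells, and Foxi3, Pou2f2 and Foxr2 were among the 4 that were lower. The 7 calls are 19.4% of the tested members. The same threshold called 32.1% of all 3591 tested symbols, 19.0% as higher and 13.1% as lower, and 30.6% of symbols within the members' range of mean level. The members' share depends on the 8 left-out names, of which 1 was higher and 4 were lower. Over the whole symbol pattern 12 of 44 tested genes were called, or 27.3%, 4 higher and 8 lower. Without deleted 1 the members called were Foxa3, Sox18 and Nkx2-3 as higher and Foxi3 as lower, where Nkx2-3 has too few counts for a test in the full set. Without deleted 2 they were Foxa3 and Gata1 as higher and 2 lower, Foxi3 among them. Without any filter, 79 members were fitted and the same 7 were called, 8.86% of the members, where 16.0% of symbols were called. Over the 36 the median log2 fold change was −0.11, against 0.07 for all tested symbols, with 16 positive and 20 negative values. The groups did not overlap in 18 members, 10 with deleted above and 8 with deleted below. Of all tested symbols, 57.0% were free of overlap, 32.8% with deleted above and 24.2% with deleted below. The median SE was 0.32 for members, whose median log2 CPM was −2.23, and 0.24 for all symbols, whose median was −1.12.

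**Figure D2:**
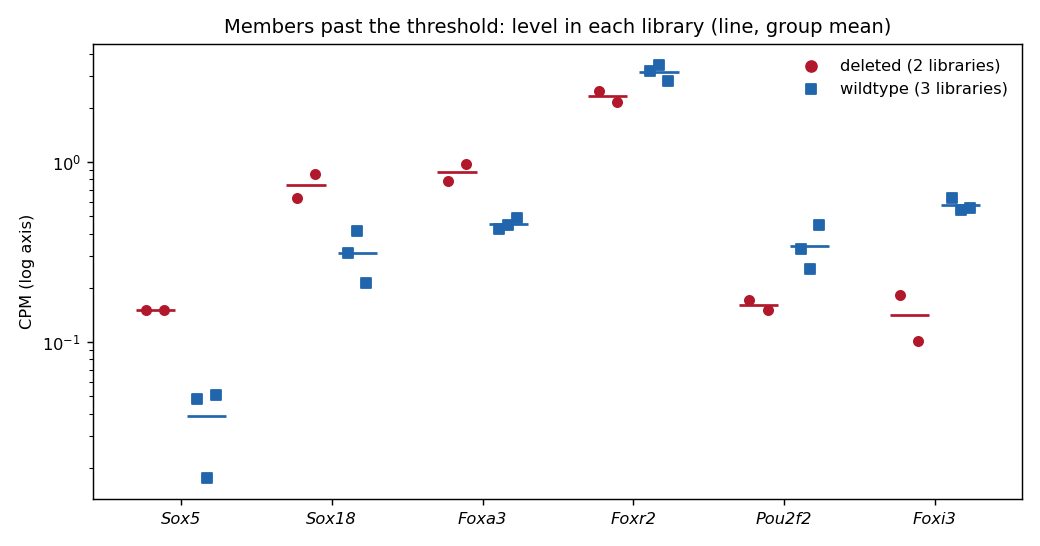
Level in CPM (log axis) of 6 of the members past the threshold, ordered by fold change, with deleted libraries as red circles, wildtype libraries as blue squares and a line at each group mean. In these 6 genes the groups do not overlap.

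Foxa3, a forkhead gene of liver and gut endoderm, was higher in the deleted cells. It had 0.782 and 0.969 CPM in deleted 1 and 2, and 0.426, 0.446 and 0.491 CPM in wildtype 1, 2 and 3. Both deleted libraries lay above all wildtype libraries. The gene averaged 0.876 ± 0.132 CPM with the deletion and 0.454 ± 0.0330 CPM in wildtype (SD, n = 2 and n = 3), which is 0.94 ± 0.18 (SE) on the log2 scale at an edgeR adjusted p of 0.00327, or 1.91-fold. Tested symbols of chromosome 7, where Foxa3 lies, were shifted as well, with a median of 0.21. Its relatives Foxa1 and Foxa2 did not pass. Foxa1 had a mean of 0.202 CPM in deleted and 0.161 CPM in wildtype cells (0.32 ± 0.29 on the log2 scale, with an edgeR adjusted p of 0.428), and Foxa2 had a mean of 0.108 CPM in deleted and 0.0853 CPM in wildtype cells (0.26 ± 0.48 on the log2 scale, with an edgeR adjusted p of 0.698). These pioneer factors of the endoderm overlap in function, and the difference between the paralogs was not tested. Of 9 primitive endoderm markers, among them the members Foxa2 and Sox17, 7 had rows and 5 were tested. None was higher, and Cubn and Pdgfra were lower. The summed level of the list was 3.02 to 3.77 CPM in deleted and 4.61 to 5.15 CPM in wildtype libraries. Most of this gap lay in Cubn, with means of 0.442 CPM in deleted and 1.87 CPM in wildtype cells. Dab2 did not pass, with means of 2.31 and 2.16 CPM. Afp, which was untested, had 8 and 3 counts in the deleted and 2, 0 and 0 in the wildtype libraries. Ttr was at 0 in every library. The part of these markers in the Foxa3 values was not tested.

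Sox18, which acts in endothelium and lymphatic vessels, was also higher. It had 0.632 and 0.858 CPM in deleted 1 and 2, and 0.313, 0.411 and 0.213 CPM in wildtype 1, 2 and 3. Both deleted libraries exceeded every wildtype library, and the wildtype values spread about as widely as the deleted ones. It averaged 0.745 ± 0.160 CPM with the deletion and 0.313 ± 0.0992 CPM in wildtype (SD, n = 2 and n = 3), which is 1.31 ± 0.28 (SE) on the log2 scale at an edgeR adjusted p of 0.00632, or 2.48-fold. Without deleted 2 it did not pass (1.05 on the log2 scale, with an edgeR adjusted p of 0.0810). The endothelial receptor genes Kdr and Flt1 in the mesoderm list did not pass, with log2 fold changes of −0.62 ± 0.23 and 0.17 ± 0.35 (SE), with an edgeR adjusted p of 0.0653 and 0.731. Of the 8 genes in that list, 5 were tested and none passed, and the summed level was 6.45 to 6.74 CPM in deleted and 3.61 to 7.04 CPM in wildtype libraries.

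Sox5, a partner of Sox6 and Sox9 in cartilage formation that is also used in neurons, was also higher. It had 14 and 15 counts in the deleted and 6, 2 and 11 in the wildtype libraries. Scaled, these were 0.150 and 0.151 CPM in deleted 1 and 2, and 0.0482, 0.0175 and 0.0509 CPM in wildtype 1, 2 and 3. The deleted totals were close together and both lay above the wildtype ones, but they drew on different bins. Bin 1, which held the most counts, had 1 and 8 in deleted 1 and 2, and 2, 0 and 5 in wildtype 1, 2 and 3. Means over the whole gene were 0.151 ± 0.000980 CPM with the deletion and 0.0389 ± 0.0186 CPM in wildtype (SD, n = 2 and n = 3). The log2 fold change was 1.84 ± 0.46 (SE), with an edgeR adjusted p of 0.0126, or 3.58-fold. Sox5 met the filter through the deleted libraries alone, and its 48 counts were spread over 17 bins, of which 1 held at least 10. It did not pass when either deleted library was left out (edgeR adjusted p = 0.0728 without deleted 1, 0.0809 without deleted 2). Sox6, its closest relative among the members, had a mean of 0.140 CPM in deleted and 0.157 CPM in wildtype cells and −0.14 ± 0.32 (edgeR adjusted p = 0.769).

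Foxi3, a forkhead gene of ectodermal placodes, ear and teeth, showed the largest difference of the 36 tested members. It had 0.182 and 0.101 CPM in deleted 1 and 2, and 0.635, 0.543 and 0.555 CPM in wildtype 1, 2 and 3. All wildtype libraries lay above the deleted ones, which held 17 and 10 counts. The gene averaged 0.142 ± 0.0574 CPM with the deletion and 0.578 ± 0.0501 CPM in wildtype (SD, n = 2 and n = 3), which is −2.03 ± 0.28 (SE) on the log2 scale at an edgeR adjusted p of 0.000608, so that its level in the deleted cells was 4.08-fold lower. Chromosome 6, where it lies with Sox5, had a median of 0.10 over its tested symbols. Pax2, a gene of kidney that also acts in the ear, had a mean of 0.0744 CPM in deleted and 0.0978 CPM in wildtype cells and did not pass (edgeR adjusted p = 0.624).

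Pou2f2, which encodes the octamer-binding B cell factor Oct2, had 0.171 and 0.151 CPM in deleted 1 and 2, and 0.330, 0.254 and 0.444 CPM in wildtype 1, 2 and 3. Every deleted library was below every wildtype library. It averaged 0.161 ± 0.0142 CPM with the deletion and 0.343 ± 0.0959 CPM in wildtype (SD, n = 2 and n = 3), which is −1.13 ± 0.33 (SE) on the log2 scale at an edgeR adjusted p of 0.0244, 2.19-fold lower. It did not pass without deleted 1 (edgeR adjusted p = 0.0974) or deleted 2 (0.139). Nor did it pass from the bin with most counts (−1.02 on the log2 scale, with an edgeR adjusted p of 0.0572), or with replicate number as a block (−0.85 on the log2 scale, with an edgeR adjusted p of 0.0534). No deleted library carries replicate number 3, so the block takes wildtype 3 out of the estimated difference. Pou2f2 shares chromosome 7 with Foxa3.

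Foxr2, an X-linked forkhead gene known as an oncogene, had the highest level of the called members. It had 2.48 and 2.16 CPM in deleted 1 and 2, and 3.19, 3.47 and 2.83 CPM in wildtype 1, 2 and 3. The deleted libraries were below the wildtype ones by a small margin. Means were 2.32 ± 0.223 CPM with the deletion and 3.17 ± 0.322 CPM in wildtype (SD, n = 2 and n = 3). The log2 fold change was −0.45 ± 0.13 (SE), with an edgeR adjusted p of 0.0217, 1.36-fold lower, while tested symbols of the X chromosome had a median of 0.18. It did not pass without deleted 1, deleted 2 or wildtype 2 (edgeR adjusted p = 0.0526, 0.137 and 0.0664).

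**Figure D3:**
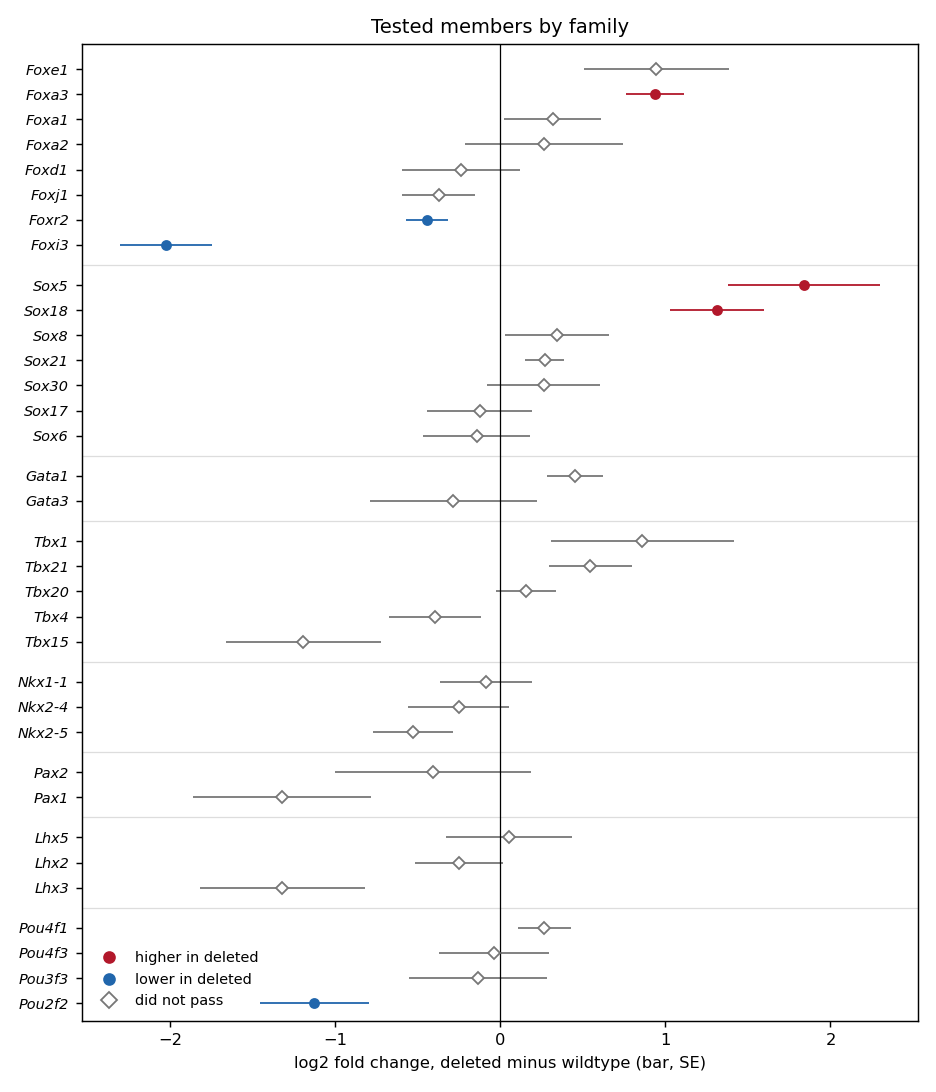
Log2 fold change, deleted minus wildtype, with SE as bars, for 34 tested members grouped by family. The 3 filled red circles are higher and the 3 filled blue circles lower in deleted cells, and the open diamonds did not pass.

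Each call was also looked at bin by bin. Bins are parts of the summed count and can share reads, so their agreement is no separate support for a call. In Foxi3 and Foxr2, every bin with at least 10 counts was lower in deleted cells (2 of 2 and 4 of 4), and in Pou2f2 4 of 4. In Foxa3 and Sox18 both bins were higher. Sox5 had 1 bin with at least 10 counts, and the groups overlapped there. The log2 ratio of mean CPM, deleted over wildtype, was −2.30 and −1.87 in the 2 Foxi3 bins, 0.89 and 1.21 in those of Foxa3, and 1.16 and 1.46 in those of Sox18. In Foxr2, bin 4 held 86.9% of counts and had a ratio of −0.46, and bins 1 to 3 had −0.39 to −0.40. Exon bin use was testable in 11 members by edgeR's diffSpliceDGE. None passed and none had an unadjusted p under 0.05, where 0.126% of tested symbols and 2.76% of all tested genes passed. A count of 0 at these levels does not show that bin use was equal.

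In the Fox family, the remaining 6 tested members did not pass. Foxe1, a thyroid factor gene, had a mean of 0.114 CPM in deleted and 0.0570 CPM in wildtype cells (0.94 ± 0.44 on the log2 scale, with an edgeR adjusted p of 0.119). Foxj1, the regulator of motile cilia, had a mean of 0.645 CPM in deleted and 0.830 CPM in wildtype cells (−0.37 ± 0.22 on the log2 scale, with an edgeR adjusted p of 0.213), and passed without wildtype 1 (−0.56 on the log2 scale, with an edgeR adjusted p of 0.0416). Foxd1, a gene of kidney stroma, had a mean of 0.156 CPM in deleted and 0.177 CPM in wildtype cells, and its sign turned without wildtype 3. Of the 17 untested Fox names, 10 had at most 3 counts in every library.

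In the Sox family, 5 tested members did not pass. Sox21, a gene of neural progenitors, was among the 3 members with the most counts. It had 2.37 and 2.16 CPM in deleted 1 and 2, and 1.91, 1.72 and 2.00 CPM in wildtype 1, 2 and 3. Both deleted values were above the wildtype ones by little (0.27 ± 0.12 on the log2 scale, with an edgeR adjusted p of 0.108). Sox8 had a mean of 0.365 CPM in deleted and 0.285 CPM in wildtype cells (0.34 ± 0.32 on the log2 scale, with an edgeR adjusted p of 0.428). Sox30, a gene of late male germ cells, had a mean of 0.130 CPM in deleted and 0.109 CPM in wildtype cells (0.26 ± 0.34 on the log2 scale, with an edgeR adjusted p of 0.580), and the endoderm gene Sox17 had a mean of 0.146 CPM in deleted and 0.156 CPM in wildtype cells (−0.13 ± 0.32 on the log2 scale, with an edgeR adjusted p of 0.784).

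Of 2 tested Gata members neither passed. Gata1, the X-linked regulator of red blood cell formation, had 1.36 and 0.999 CPM in deleted 1 and 2, and 0.892, 0.901 and 0.801 CPM in wildtype 1, 2 and 3. Its deleted libraries were above the wildtype ones, and the log2 fold change of 0.45 ± 0.17 had the smallest adjusted p of all members that did not pass (0.0619 with edgeR). Gata1 passed without deleted 2 (0.64 on the log2 scale, with an edgeR adjusted p of 0.0406) but was 0.21 without deleted 1 (edgeR adjusted p = 0.483). It also passed from its bin with most counts (0.80 on the log2 scale, with an edgeR adjusted p of 0.00671). Gata3, a factor of T cells and trophoblast, had a mean of 0.119 CPM in deleted and 0.135 CPM in wildtype cells (−0.28 ± 0.51 on the log2 scale, with an edgeR adjusted p of 0.692), and its sign turned without wildtype 3.

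The 5 tested T-box members did not pass. Tbx15, a gene of limb and skeleton, had 0.0536 and 0.101 CPM in deleted 1 and 2, and 0.121, 0.158 and 0.236 CPM in wildtype 1, 2 and 3. The groups did not overlap, and the log2 fold change was −1.19 ± 0.47 (SE), with an edgeR adjusted p of 0.0727. It passed without wildtype 1 (−1.40 on the log2 scale, with an edgeR adjusted p of 0.0466) and under TMM on symbol rows (−1.26 on the log2 scale, with an edgeR adjusted p of 0.0461). Without deleted 1 it was −0.82 (edgeR adjusted p = 0.349), and without deleted 2 −1.74 (0.113). Tbx21, the T-bet factor of T helper cells, had a mean of 0.302 CPM in deleted and 0.209 CPM in wildtype cells (0.54 ± 0.25 on the log2 scale, with an edgeR adjusted p of 0.118). Tbx1 and Tbx4, of the pharynx and of hindlimb and lung, had 0.86 ± 0.55 and −0.40 ± 0.28 (edgeR adjusted p = 0.254 and 0.290). Tbx20, a heart gene with the most counts of the family, had a mean of 0.712 CPM in deleted and 0.641 CPM in wildtype cells (0.15 ± 0.18 on the log2 scale, with an edgeR adjusted p of 0.532).

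In the Nkx family, 3 tested members had negative values without passing. Nkx2-5, an early heart gene, had 0.289 and 0.363 CPM in deleted 1 and 2, and 0.474, 0.376 and 0.541 CPM in wildtype 1, 2 and 3. The groups did not overlap, but wildtype 2 lay close to deleted 2, and the log2 fold change was −0.53 ± 0.24 (edgeR adjusted p = 0.116). Nkx2-4 and Nkx1-1 had −0.25 ± 0.31 and −0.09 ± 0.28 (edgeR adjusted p = 0.549 and 0.827). Both had libraries of the groups intermixed.

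Pax1, a gene of the sclerotome and thymus, had 3 and 10 counts in the deleted and 24, 26 and 25 in the wildtype libraries. Scaled to depth, this was 0.0321 and 0.101 CPM in deleted 1 and 2, and 0.193, 0.228 and 0.116 CPM in wildtype 1, 2 and 3. On the log2 scale the difference was −1.32 ± 0.54 (SE), short of the threshold with an edgeR adjusted p of 0.0811. It was −0.75 without deleted 1 (edgeR adjusted p = 0.403) and −2.39 without deleted 2 (0.0678), so a single library moved it by over 1.5 times. It passed without wildtype 3 (−1.63 on the log2 scale, with an edgeR adjusted p of 0.0119) and with the block on replicate number (−1.66 on the log2 scale, with an edgeR adjusted p of 0.0144). The block also takes wildtype 3 out of the difference, so these settings are not separate. In all 5 Pax1 bins with at least 10 counts the deleted mean was lower. These bins are parts of the same sum, and Pax1 met the filter through the wildtype libraries alone. Their agreement is therefore no separate support. Pax2 had −0.41 ± 0.59. In the Lhx family, Lhx3, a gene of pituitary and motor neurons, had 0.0321 and 0.0505 CPM in deleted 1 and 2, and 0.0804, 0.123 and 0.111 CPM in wildtype 1, 2 and 3. The groups did not overlap and the log2 fold change was −1.32 ± 0.50 (SE), with an edgeR adjusted p of 0.0637. Lhx3 passed under TMM on symbol rows (−1.39 on the log2 scale, with an edgeR adjusted p of 0.0492). Without deleted 1 or deleted 2 its adjusted p in edgeR was 0.291 or 0.133. The forebrain genes Lhx2 and Lhx5 had −0.25 ± 0.27 and 0.05 ± 0.38 (edgeR adjusted p = 0.493 and 0.930).

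Among POU members, the sensory neuron gene Pou4f1 had 2.19 and 2.33 CPM in deleted 1 and 2, and 1.58, 1.74 and 2.25 CPM in wildtype 1, 2 and 3. Wildtype 3 lay between the deleted libraries, and the log2 fold change of 0.27 ± 0.16 did not pass (edgeR adjusted p = 0.218). It passed without wildtype 3 (0.44 on the log2 scale, with an edgeR adjusted p of 0.0114) and with the block (0.44 on the log2 scale, with an edgeR adjusted p of 0.0121). Both settings take wildtype 3 out of the difference, so they are not separate. Without wildtype 1 it was 0.15 (edgeR adjusted p = 0.526). Pou3f3 and Pou4f3 had −0.14 ± 0.42 and −0.04 ± 0.33 (edgeR adjusted p = 0.822 and 0.950). Of 8 neural markers, 5 were tested, 1 was higher (Elavl3) and none was lower. Their summed level was 15.0 to 15.4 CPM in deleted and 11.6 to 17.5 CPM in wildtype libraries, with Dcx at 1 count at most. Their part in these values was not tested.

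Levels between genes were compared per kilobase of exon, with lengths from GENCODE vM21 (GRCm38), which is not the annotation of the table. A read that touches several bins is counted in each, so genes with more bins can rank too high. Sox21 has 1 bin and Gata1 has 6. In deleted cells the order was led by Foxr2 at 0.721, Sox21 at 0.596, Gata1 at 0.484, Pou4f1 at 0.484, Sox18 at 0.460 and Foxa3 at 0.430 CPM per kilobase. In wildtype cells Foxr2 led at 0.985, with Sox21 at 0.493 and Foxi3 at 0.451, followed by Pou4f1 at 0.398 and Gata1 at 0.355 CPM per kilobase. Sox18 stood at 0.193 and Foxa3 at 0.223 there, and Foxi3 at 0.111 in deleted cells. Neighbours such as Gata1 and Pou4f1 in the deleted cells differ by less than the spread between libraries.

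**Figure D4:**
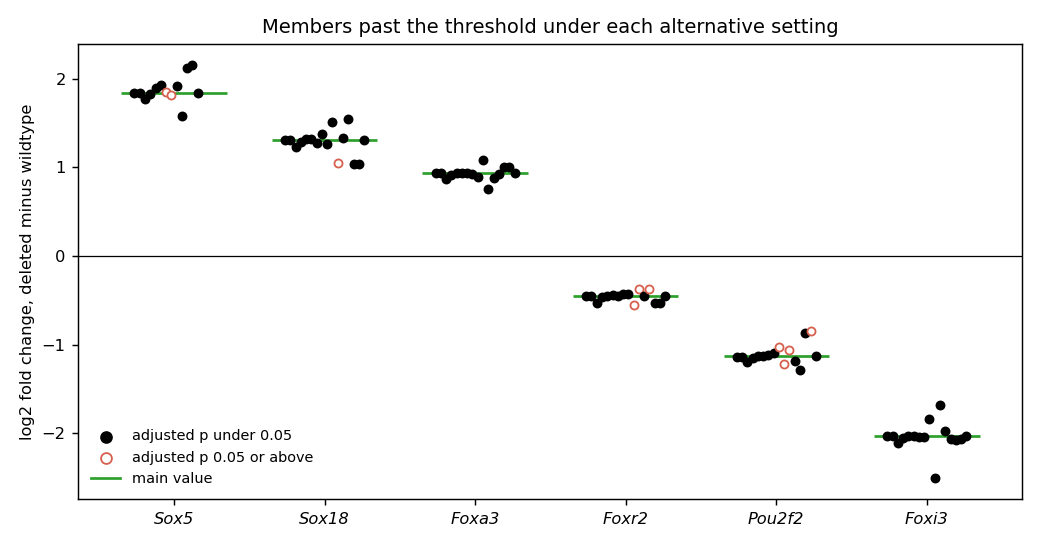
Log2 fold change, deleted minus wildtype, of 6 of the members past the threshold under each alternative setting that could fit them, as points. Black points pass at adjusted p under 0.05, open points do not, and the green line is the main value. No point changes sign, and Foxi3 and Foxa3 have only black points.

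A wider list of 118 genes for other developmental factors and cofactors, such as the Dlx, Irx, Runx and bHLH genes, was read in the same way. Of these, 93 had rows, 53 were tested, 10 were higher, 3 were lower and 40 did not pass. This is 24.5% called against the 32.1% of all tested symbols, and the median log2 fold change was 0.00. Runx1, a factor of blood stem cells, had 2.38 and 2.87 CPM in deleted 1 and 2, and 0.651, 0.595 and 0.615 CPM in wildtype 1, 2 and 3. Its deleted libraries were far above the wildtype ones, by 2.08 ± 0.14 (SE) on the log2 scale at an edgeR adjusted p of 1.85e-05, or 4.23-fold. Isl1, a LIM homeobox gene of motor neurons and heart, averaged 0.318 ± 0.0355 CPM with the deletion and 0.119 ± 0.0214 CPM in wildtype (SD, n = 2 and n = 3). Its difference was 1.45 ± 0.29 (SE) on the log2 scale at an edgeR adjusted p of 0.00423. Among the others past the threshold, the midbrain gene En1 had a log2 fold change of 0.70 ± 0.18, the organizer gene Gsc 1.09 ± 0.30, the neuron gene Tlx3 0.61 ± 0.19 and Meis1, a Hox cofactor gene, 0.72 ± 0.22. The 3 lower genes were Msx2 at −0.76 ± 0.21, Snai2, a factor of epithelial-mesenchymal transition, at −0.81 ± 0.26 and the brain gene Otx1 at −1.01 ± 0.34. Otx1 met the filter through the wildtype libraries alone, with 12 and 8 counts in the deleted ones. Adjusted p-values of these 7 genes were 0.0127 to 0.0427 with edgeR. Without deleted 1 the counts were 3 higher and 0 lower, and without deleted 2 they were also 3 and 0. Runx1 and Isl1 were called in each of the 16 alternative settings. Tlx3 and Snai2 lost the call in 8 of 16 each, Meis1 in 6 of 16 and Otx1 in 7 of the 15 that could fit it. None of these 4 passed with DESeq2 (adjusted p = 0.0666, 0.0707, 0.0726 and 0.0967). From its most counted bin Meis1 was 0.14 (edgeR adjusted p = 0.819). En1 lost the call in 3 settings, and Gsc and Msx2 in 2 each.

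**Figure D5:**
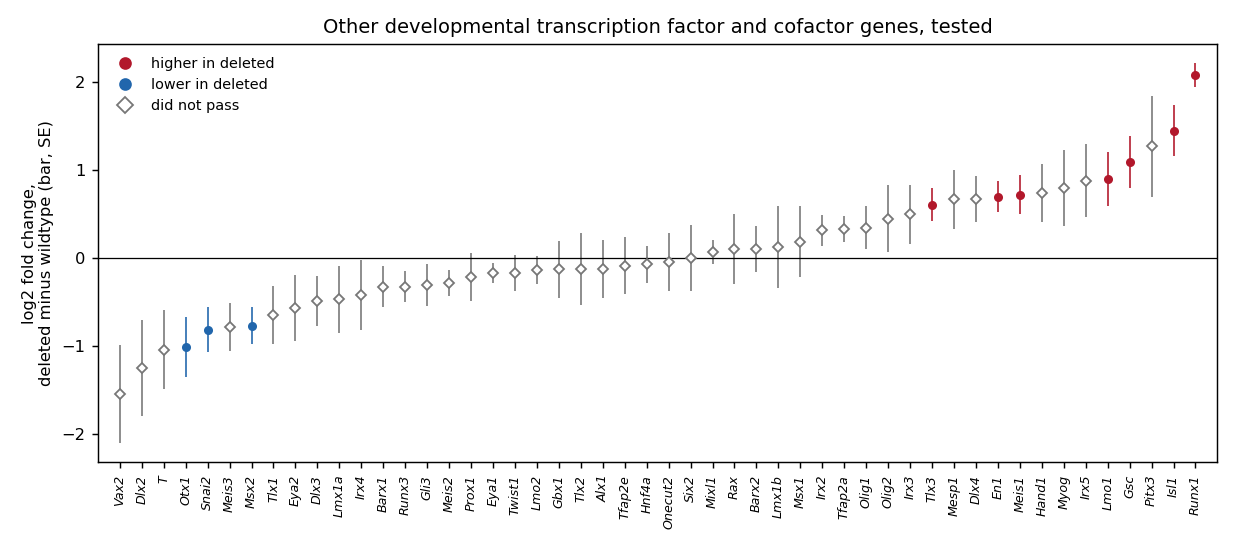
Log2 fold change, deleted minus wildtype, with SE as bars, of 50 tested genes of the wider list in rising order. Filled red circles are 7 higher and filled blue circles 3 lower genes in deleted cells, and open diamonds did not pass.

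The 8 family names left out of the selection can be set beside the members. Tbx6 was higher at a log2 fold change of 1.87 ± 0.35 (SE). It met the filter through the deleted libraries alone, with 19 and 20 counts there and 6, 6 and 13 in the wildtype libraries. Lower were Foxj2 at −0.94 ± 0.12, Gata2 at −0.80 ± 0.15, Sox7 at −0.89 ± 0.16 and Nkx1-2 at −0.95 ± 0.25, and Foxq1, Gata4 and Gata6 did not pass. Fibroblast and trophoblast markers were read as well. Of 8 fibroblast markers 3 were tested and Col1a2 was higher, with summed levels of 7.79 to 8.03 CPM in deleted and 5.97 to 8.20 CPM in wildtype libraries, and Postn and Lum at 1 count at most. Of 8 trophoblast markers 4 were tested and Cdx2 and Gcm1 were lower. Cdx2 met the filter through the wildtype libraries alone, with 4 and 13 counts in the deleted ones. Sums of the trophoblast list were 0.911 to 1.04 CPM in deleted and 1.19 to 1.40 CPM in wildtype libraries, with Prl3d1 at 0. The list was split. Krt7 and Hand1 did not pass, and Hand1 was above wildtype without overlap (0.74 ± 0.33 on the log2 scale, with an edgeR adjusted p of 0.107). Untested Elf5 was also above, with 5 and 7 counts in the deleted and 2, 2 and 6 in the wildtype libraries. The part of either marker list in the members' values was not tested. Chromosome 8 had a median of 0.52 on the log2 scale over 160 tested symbols, and none of its 3 members was tested.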

How the data were processed

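RNA of 2 deleted and 3 wildtype libraries was analysed from 1 table of 243771 rows. The authors deposited raw read counts per exon bin; per the submitters' processing notes STAR and the mm9 build were used, and the sources used here give no annotation, strand setting or version. Replicate libraries are separate columns. Spike-in RNA took 56 rows and 0.000320% to 0.000508% of the counts per library, and stayed out.

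Here, bins were summed per gene, filtered with edgeR's filterByExpr (minimum count 10), scaled by TMM and tested over the whole table with edgeR's robust quasi-likelihood test, with edgeR 4.0.16 in R 4.3.3 and limma 3.58.1, at a Benjamini-Hochberg adjusted p under 0.05. Exon bin use was tested with diffSpliceDGE and Simes p-values. Both were also run on simulated counts. The gene simulation covered all tested genes, not the members' low level in particular. The bin simulation drew bins independently, without shared reads. Members, the wider list and the marker lists were chosen with earlier results of these data known. Named were all members past the threshold, up to 4 others per family by p, the 5 untested members with the most counts, and up to 12 genes of the wider list by p; Foxa2, Foxd1, Sox17, Tbx20 and the members with 1 count were added after their values were seen. Alternatives covered scaling, filters, limma-voom, DESeq2 1.42.0, a single bin per gene, each library left out and the replicate number as a block; the fit without robust estimation was added after seeing the data. A few genes that enter the counts are not reported here by name.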

Additional observations from a re-analysis of the deposited data

How the results depend on the processing

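Under 16 alternative settings, Foxi3 and Foxa3 passed in each, and no member past the threshold changed sign. Their 109 values under alternatives comprised 98 that still passed and 11 that did not. Sox5 could not be tested with 10 counts required in every library, with a minimum count of 20 or from its most counted bin. Leaving out 1 library in turn gave 2 to 4 members higher and 1 to 6 lower, not always the same genes, and in the wider list 3 to 9 higher and 0 to 3 lower; the lowest counts came without a deleted library, where the lone deleted library is assumed to vary like the wildtype ones and 613 (without deleted 1) or 642 (without deleted 2) symbols were called instead of 1152. With TMM on symbol rows, which shifts the median of all genes to −0.07, 5 genes of the wider list were lower, and from the most counted bin 5 were higher and 1 lower; the cause was not tested. Lhx5 turned to −0.021 under TMM on symbol rows and −0.71 from its most counted bin, where Gata3 turned to 0.11. Among members that did not pass, log2 fold changes that changed sign when 1 library was left out ranged as follows, lowest to highest: Lhx2 −0.63 to 0.025, Nkx2-4 −0.68 to 0.051, Nkx1-1 −0.25 to 0.033, Pou4f3 −0.14 to 0.032, Sox6 −0.41 to 0.057, Foxa2 −0.096 to 0.60, Lhx5 −0.50 to 0.42, Pax2 −2.22 to 0.38, Tbx1 −0.023 to 1.38, Foxd1 −0.42 to 0.042, Gata3 −0.57 to 0.36 and Pou3f3 −0.32 to 0.030. Deviations of same-numbered libraries from their group means correlated at r = 0.0536 and −0.0539 across genes. The deviations of the 2 deleted libraries mirror each other by construction. These values therefore cannot decide whether replicate numbers pair the libraries. Replicate 3 exists in wildtype alone, so the replicate block takes wildtype 3 out of the estimated difference. It is therefore not separate from the setting without wildtype 3. With the replicate block, 4 members were higher and 4 lower, 11 and 3 in the wider list, and 0 members passed for exon bin use. Foxd1 turned to 0.065, Gata3 to 0.36 and Pou3f3 to 0.062. Members with few counts are limited by depth.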
